A study of Mus musculus with 42 samples.

Results

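The comparison described here sets the cerebellum of mice fasted on alternate days (every other day, EOD) against the cerebellum of mice fed ad libitum (AL), at the end of a regimen of 3 months. Its 10 RNA-seq libraries, 5 per group, were chosen by their labels alone and are 10 of the 42 samples of the series. The mice were male, of strain C57BL/6 in the sample labels and C57/BL6NTac in the design text, 3 months old at the start and 6 months old at collection. EOD mice received food for 24 h and then had none for 24 h, in alternation, while AL mice always had food. Both groups had water and the same chow, and the labels name no transgene or drug. A group on a daily fast of 16 h (IF16), collected with them, serves below as a point of comparison. So do a group returned to free feeding for 2 months after alternate-day fasting (EOD-R) and its ad libitum controls (AL-R), both 8 months old. The hour of collection relative to the last feeding is not given in the sources used here, so a fed and a fasted day of the EOD cycle cannot be told apart. Each library is labelled as a separate replicate. The text does not say that each came from 1 animal, and p-values measure the spread between these samples.

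During a fast the liver releases ketone bodies made from fatty acids, glucocorticoid hormone rises, insulin falls, and cells shift from glucose toward fat and ketones as fuel. In cells, the glucocorticoid receptor induces a well-known set of target genes, the lipid-sensing PPAR receptors induce genes of fatty acid use, and FOXO factors become active when insulin signalling is low. The timing of meals and glucocorticoid hormone also act on the circadian clock, a feedback loop in which CLOCK and its partner ARNTL drive the genes of their own repressors.

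Total counts were 26799825 to 36167435 per library. The cerebellar identity of the tissue was plain in all 10 libraries. The summed level of 10 granule cell markers was 7088 to 7938 CPM (counts scaled to library size, with the TMM factors of edgeR) in AL and 7056 to 7783 in EOD, and that of 10 Purkinje cell markers 6381 to 7721 and 7489 to 8710. Single libraries carried RNA of other tissue. EOD library 1 held 1720 counts of the liver transcript Alb and a summed level of 13 liver markers of 112 CPM, against 2.52 to 3.89 in the other EOD libraries. EOD library 3 held 690 counts of the pituitary hormone transcript Gh and 38.4 CPM over 9 pituitary markers, against 3.62 to 4.34. AL library 1 had 181 CPM over 11 choroid plexus markers where the other AL libraries had 1662 to 5129 and the EOD libraries 1183 to 3879, and AL library 4 had 18.5 CPM over 8 brainstem markers. AL libraries 1 and 4 also held 135 and 112 CPM of Nrgn, a postsynaptic protein abundant in forebrain neurons, against 8.995 to 12.2 in the other AL libraries and 7.27 to 10.9 in EOD. AL libraries 4 and 5 were also low and EOD library 4 high on long transcripts: the slope of a library's log2 level on log2 gene length was -0.16, -0.11 and 0.14 in them and between -0.02 and 0.06 in the other 7. In whole tissue, fewer cells of a type and less RNA per cell cannot be told apart.

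**Figure D1:**
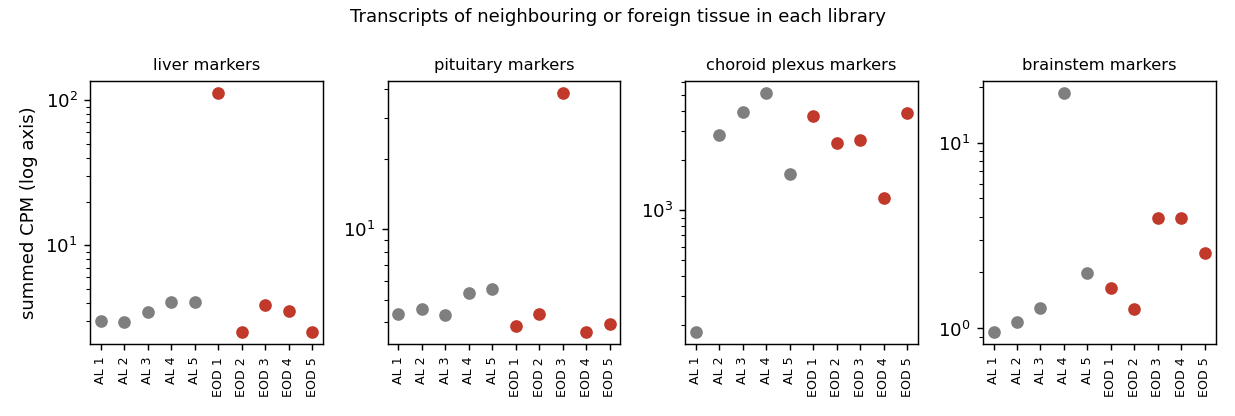
Summed CPM (vertical log axis) of liver, pituitary, choroid plexus and brainstem markers in each of the 5 AL (grey) and 5 EOD (red) libraries (horizontal axis), 1 point per library. EOD library 1 stands out at 112 CPM for liver, EOD library 3 at 38.4 for pituitary, AL library 1 at 181 for choroid plexus and AL library 4 at 18.5 for brainstem.

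Few single genes passed the test. Of 16577 genes tested with edgeR's quasi-likelihood test, 11 were called between EOD and AL at an adjusted p under 0.05 (0.0664%), 9 higher in EOD (0.0543%) and 2 lower (0.0121%). In all 11 the 5 EOD values lay wholly above or below the 5 AL values, as they did for 226 higher genes (1.36%) and 254 lower genes (1.53%) of all those tested. At an unadjusted p under 0.05 there were 2390 genes (14.4%), 1163 higher (7.02%) and 1227 lower (7.4%), and the median log2 fold change of all genes was -0.02. That count of 2390 hung on single libraries: it was 4181 without AL library 1, and 1331, 1441, 1534 and 1535 without AL library 4, AL library 5, EOD library 2 and EOD library 4. DESeq2 called 133 genes (0.802%), 71 higher and 62 lower, and these included all 11. With DESeq2's size factors in edgeR the split was 5 higher and 2 lower.

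**Figure D2:**
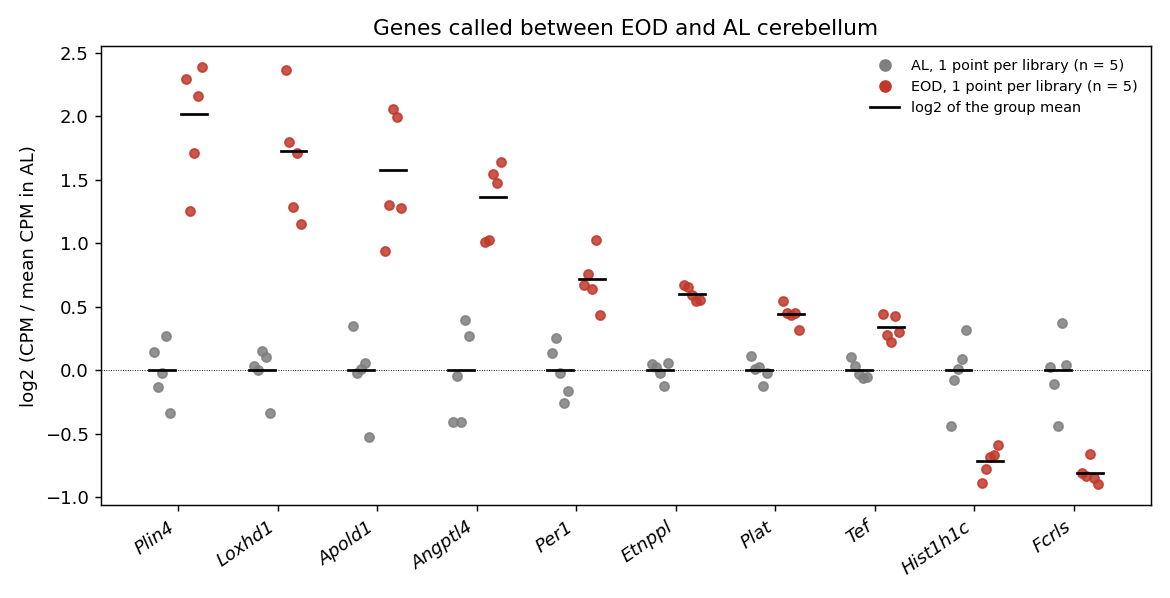
Of the 11 genes called between EOD and AL, 10 are plotted, ordered by log2 fold change on the horizontal axis. Each point is 1 library's log2 ratio of CPM to the AL mean (vertical axis), grey for AL and red for EOD (n = 5 each), and the bar is the log2 of the group mean. Plin4, Loxhd1, Apold1 and Angptl4 lie highest, Hist1h1c and Fcrls lie below, and the groups overlap in none of them.

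The gene with the smallest p was Etnppl (chr3:130617448-130635750, plus strand), an astrocyte-rich enzyme that breaks down phosphoethanolamine, a building block of membrane lipids. Its level was 95.7, 94.0, 91.1, 84.9 and 96.0 CPM in AL libraries 1 to 5 and 147, 145, 139, 135 and 135 in EOD libraries 1 to 5. The 5 EOD libraries lay close together, above every AL library. Etnppl rose by 0.60 on the log2 scale (SE 0.05, edgeR adjusted p = 6.8e-05), and it passed in each of 10 fits that left out 1 AL or EOD library and in 11 of 11 other settings. The 10 astrocyte and Bergmann glia markers summed to 2754 to 3115 CPM in AL and 3057 to 3800 in EOD. Their part in the result was not tested. Around Etnppl, of 17 genes of ethanolamine and choline phospholipid metabolism, 2 were higher at an unadjusted p under 0.05 and none lower, beside 7.02% and 7.4% of all genes. The second was Sgpl1, the lyase that releases phosphoethanolamine from sphingolipid breakdown, with a log2 difference of 0.17 (SE 0.08, edgeR adjusted p = 0.34).

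Among genes of ketone body synthesis and use the values lay on both sides. Of 11 tested, 2 were higher and 1 lower at an unadjusted p under 0.05, beside 7.02% and 7.4% of all genes. Their median log2 fold change was -0.07. Oxct1, which brings ketone bodies into oxidation, was 241 to 271 CPM in AL and 251 to 272 in EOD, and Bdh1, the mitochondrial dehydrogenase of hydroxybutyrate, 42.7 to 58.3 and 45.4 to 48.7. The monocarboxylate transporter Slc16a1, which carries ketone bodies and lactate across the blood-brain barrier, differed by 0.26 (SE 0.10, edgeR adjusted p = 0.32).

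Angptl4 and Plin4, both called, belong to fat handling. Angptl4 (chr17:33773750-33781575, minus strand), a secreted inhibitor of lipoprotein lipase, measured 2.14, 2.75, 2.14, 3.73 and 3.42 CPM in AL and 5.71, 5.78, 8.26, 7.87 and 8.86 in EOD. Plin4 (chr17:56100591-56109803, minus strand), a coat protein of lipid droplets, measured 2.37, 1.96, 2.11, 2.58 and 1.70 CPM in AL and 10.5, 5.11, 7.01, 9.58 and 11.2 in EOD. EOD library 2 was the lowest or near the lowest EOD library for both, and no EOD library reached down to an AL value. Angptl4 rose by 1.37 (SE 0.21, edgeR adjusted p = 0.0233) and Plin4 by 2.02 (SE 0.36, adjusted p = 0.0485). Angptl4 kept its call in 4 of the 10 fits that left out a library, and Plin4 in 0, with adjusted p between 0.0599 and 0.208 and log2 fold changes from 1.91 to 2.16. Reads of Plin4 may be mixed with those of Hdgfrp2, which overlaps it on the other strand at 88.2 CPM in AL and 81.1 in EOD, since the strand setting of the counting is not stated.

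Both genes are on a list of 26 PPAR-type fasting genes, of which 25 were tested. There 8 genes were higher and 1 lower at an unadjusted p under 0.05, beside 7.02% and 7.4% of all genes. The median log2 fold change was 0.03, so a part of the list was higher and the list as a whole was not shifted. Cpt1a, the gate of fatty acids into mitochondria, measured 29.4, 34, 34.4, 29.1 and 27.5 CPM in AL and 41.3, 39.7, 37.2, 41.8 and 38.0 in EOD. The groups did not overlap, and the log2 difference of 0.36 (SE 0.07) had an edgeR adjusted p of 0.121. Pdk4, a kinase that restrains the oxidation of pyruvate, had 6.00 to 8.91 CPM in AL and 11.5 to 15.5 in EOD (log2 0.71, SE 0.21, adjusted p = 0.25). On the other side stood Plin2, the widespread droplet coat protein, with a log2 difference of -0.23 (SE 0.10, adjusted p = 0.33). The fatty acid oxidation enzymes Acaa2 (0.07), Hadha (-0.09) and Ehhadh (-0.11) and the receptors Ppard (-0.04) and Pparg (0.00) had log2 differences near those of all genes, and none had an unadjusted p under 0.05. Of 26 genes of fatty acid beta-oxidation as a whole, 2 were higher and 1 lower at that threshold.

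Genes of the glucocorticoid response were mostly higher in EOD. Of 26 genes tested, 21 were higher in EOD at an unadjusted p under 0.05 and 0 lower, beside 7.02% and 7.4% of all genes. Their median log2 fold change was 0.59. The values of 12 did not overlap between the groups, all higher in EOD, beside 1.36% of all genes. The called members were Angptl4, Per1 and Plin4. The receptors and the activating enzyme were not among those higher: Nr3c1, the glucocorticoid receptor, differed by 0.18 (SE 0.13), Nr3c2, the mineralocorticoid receptor, by 0.16 (SE 0.09), and Hsd11b1, which regenerates the active hormone, by -0.14 (SE 0.13). All 21 were among the 23 genes that the hormone induces. Of these 26 genes, 3 are also on the PPAR-type list, 3 on the FOXO list, 1 on the clock list and 1, Dusp1, on the list of immediate early genes. Mt1 and Mt2, described below, are among the 26 too. The lists are therefore not separate evidence.

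Among the induced genes, Sgk1, a kinase of ion transport and cell stress, measured 61.8, 61.5, 66.5, 74.7 and 54.9 CPM in AL and 102, 76.3, 140, 138 and 151 in EOD. Its groups did not overlap (log2 0.93, SE 0.27, edgeR adjusted p = 0.25). Tsc22d3, known as GILZ, had 81.1 to 104 CPM in AL and 107 to 157 in EOD (log2 0.54, SE 0.17, adjusted p = 0.27). Fkbp5, the chaperone that damps the receptor, had 6.75 to 9.92 CPM in AL and 9.85 to 23.0 in EOD. Its groups touched at EOD library 3 (log2 0.82, SE 0.28, adjusted p = 0.31). Zbtb16, a transcriptional repressor, had 6.19, 4.80, 4.71, 3.58 and 5.06 CPM in AL and 13.6, 12.4, 4.71, 18.0 and 24.1 in EOD. EOD libraries 1, 2, 4 and 5 were above every AL library and EOD library 3 was not, so its log2 difference of 1.58 had an SE of 0.42 (adjusted p = 0.21). Cdkn1a, a brake of the cell cycle, had 29.4 to 45.8 CPM in AL and 42.1 to 104 in EOD, and Klf15, a fasting-induced transcription factor, 23.0 to 26.2 and 26.8 to 43.8. Mfsd2a, a lipid transporter of the blood-brain barrier endothelium, had 10.02 to 16.1 CPM in AL and 17.04 to 19.6 in EOD (log2 0.59, SE 0.14, adjusted p = 0.17). Lcn2 (-0.58, SE 0.65) lay on the other side, at 1.03 CPM or less in all 10 libraries.

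The metallothioneins Mt1 and Mt2, zinc-binding proteins that glucocorticoids and metals induce, were 180 to 395 and 73.4 to 192 CPM in AL and 386 to 572 and 192 to 276 in EOD (log2 0.71, SE 0.18, and 0.84, SE 0.22, edgeR adjusted p = 0.20 and 0.21). Mt3, the neuronal form that is not known for this response, had a log2 difference of -0.10 (SE 0.17). As a description of the sequences, the RefSeq promoter windows of GRCm38.p6, from 250 bases before a start to 50 after, were searched on both strands for the palindromic glucocorticoid response element, GNACA and TGTNC with any 3 bases between them. It was found for 3 of the 23 list members that have a window (13%), Mt1, Fam107a and Sgk1, and for 0.537% of all 27025 genes with a window. Response elements can also lie far from promoters, and a match is not a measured binding site. The Mt1 window is shown because Mt1 has the smallest p of the 3. It is chr8:94178839-94179138, plus strand, and capitals mark the element, whose first base is at -94.
Mt1: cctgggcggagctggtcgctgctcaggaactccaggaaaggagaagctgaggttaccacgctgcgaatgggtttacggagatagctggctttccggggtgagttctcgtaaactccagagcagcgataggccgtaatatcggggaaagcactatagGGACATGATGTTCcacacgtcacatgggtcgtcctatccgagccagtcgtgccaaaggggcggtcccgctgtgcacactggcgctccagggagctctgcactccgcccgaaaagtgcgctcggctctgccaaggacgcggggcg

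Clock genes leaned the same way, most often in their repressor arm. Of 20 clock genes, 11 were higher and 1 lower at an unadjusted p under 0.05, beside 7.02% and 7.4% of all genes. Their median log2 fold change was 0.18, and 2 were called, Per1 and Tef. Of the 10 repressors 8 were higher and 0 lower, of 6 activators 1 was higher and 1 lower, and of 4 output factors 2 were higher and 0 lower. Their medians were 0.22, 0.17 and 0.17. Per1 (chr11:69095217-69109960, plus strand), a repressor that both fasting cues and glucocorticoids can induce, measured 121, 132, 108, 92.3 and 98.5 CPM in AL and 176, 187, 172, 225 and 149 in EOD. Tef (chr15:81802421-81826861, plus strand), an output transcription factor of the clock, measured 316, 301, 287, 281 and 283 CPM in AL and 399, 355, 342, 395 and 362 in EOD. All EOD libraries were above all AL libraries for both. Per1 rose by 0.72 (SE 0.12, edgeR adjusted p = 0.0436) and Tef by 0.34 (SE 0.06, adjusted p = 0.0485). Per1 kept its call in 1 of the 10 fits that left out a library, and Tef in 0, with adjusted p of at most 0.208 and 0.239. The lincRNA Gm17597, which overlaps Tef on the other strand, had 0.98 CPM in AL and 0.93 in EOD.

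Among the other repressors, Per2 had 60.4, 51.3, 37.6, 26.3 and 41.5 CPM in AL and 96.0, 88.7, 66.5, 82.3 and 59.4 in EOD. AL library 1 reached into the EOD range (log2 0.85, SE 0.20, edgeR adjusted p = 0.17). Ciart, a small repressor of CLOCK and ARNTL, had 9.59 to 12.1 CPM in AL and 13.5 to 17.3 in EOD (log2 0.49, SE 0.11, adjusted p = 0.16). Nr1d2 differed by 0.43 (SE 0.11, adjusted p = 0.21) and its sister Nr1d1 by 0.13 (SE 0.09). In the activating arm, Arntl was 40.8 to 48.1 CPM in AL and 36.4 to 41.2 in EOD (log2 -0.17, SE 0.06, adjusted p = 0.31), and Clock differed by 0.28 with an SE of 0.22. The output gene Dbp had 38.9 to 62.6 CPM in AL and 43.5 to 53.8 in EOD, with a log2 difference of 0.01. Usp2, a deubiquitinase with a circadian rhythm that was not on the list, had 89.5 to 103 CPM in AL and 119 to 140 in EOD (log2 0.39, SE 0.08, adjusted p = 0.136).

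CLOCK and ARNTL bind the E-box CACGTG. That hexamer was in a promoter window of 5 of the 17 clock genes that have one (29.4%), Per1, Tef, Ciart, Cry1 and Bhlhe41, and of 8.09% of all genes. The windows of the 2 called genes and of Ciart, the next of these by p, are shown with each E-box in capitals. Per1 is chr11:69098699-69098998, plus strand, at a start 3731 bases inside the deposited gene. Tef is chr15:81802423-81802722, plus strand. Ciart is chr3:95882179-95882478, minus strand, and holds 3 copies.
Per1: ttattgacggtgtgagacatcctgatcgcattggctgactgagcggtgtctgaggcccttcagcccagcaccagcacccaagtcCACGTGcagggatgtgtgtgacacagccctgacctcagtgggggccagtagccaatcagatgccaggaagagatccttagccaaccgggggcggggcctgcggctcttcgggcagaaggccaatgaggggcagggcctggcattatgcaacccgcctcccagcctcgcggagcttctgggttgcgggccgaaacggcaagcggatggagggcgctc
Tef: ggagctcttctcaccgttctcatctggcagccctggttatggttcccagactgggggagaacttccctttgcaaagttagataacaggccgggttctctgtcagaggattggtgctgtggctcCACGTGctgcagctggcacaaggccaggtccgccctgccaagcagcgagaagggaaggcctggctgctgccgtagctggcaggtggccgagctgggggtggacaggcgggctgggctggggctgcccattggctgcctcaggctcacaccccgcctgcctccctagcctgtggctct
Ciart: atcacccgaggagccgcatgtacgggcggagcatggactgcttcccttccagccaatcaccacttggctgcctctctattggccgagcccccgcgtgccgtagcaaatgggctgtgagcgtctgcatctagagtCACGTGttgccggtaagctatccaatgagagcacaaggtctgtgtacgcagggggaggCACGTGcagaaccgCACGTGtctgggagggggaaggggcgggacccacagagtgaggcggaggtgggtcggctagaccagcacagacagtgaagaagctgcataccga
The E-box begins at -166 in Per1, at -127 in Tef and first at -116 in Ciart.

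The insulin, IGF and FOXO list had 16 of 26 genes higher and 1 lower at an unadjusted p under 0.05, beside 7.02% and 7.4% of all genes. The median was 0.30 and none was called. Txnip, an inhibitor of thioredoxin and glucose uptake, measured 15.9, 14.1, 15.5, 14.7 and 14.0 CPM in AL and 27.2, 21.7, 39.7, 30.3 and 27.5 in EOD. The AL libraries lay within a narrow band below all EOD libraries (log2 0.98, SE 0.21, edgeR adjusted p = 0.153), and a fit of the AL and EOD libraries alone called it (0.98, adjusted p = 0.0307). Foxo1 differed by 0.34 (SE 0.14), Foxo3 by 0.31 (SE 0.12) and Foxo6 by -0.84 (SE 0.25, adjusted p = 0.26). The insulin receptor Insr differed by 0.32 (SE 0.12) and the receptor substrate Irs2 by 0.50 (SE 0.27). For Irs2, AL libraries 4 and 5 had 25 and 41.7 CPM, the other AL libraries 59.8 to 75.7 and the EOD libraries 62.0 to 101. Those 2 AL libraries and EOD library 4 are the ones with a slope on transcript length. Without the 3, 3 of 26 genes were higher, none was lower and the median was 0.10, beside 2.33% of all genes higher. The glucocorticoid list then had 17 of 26 higher with a median of 0.61, and the clock list 7 of 20 with a median of 0.19.

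**Figure D3:**
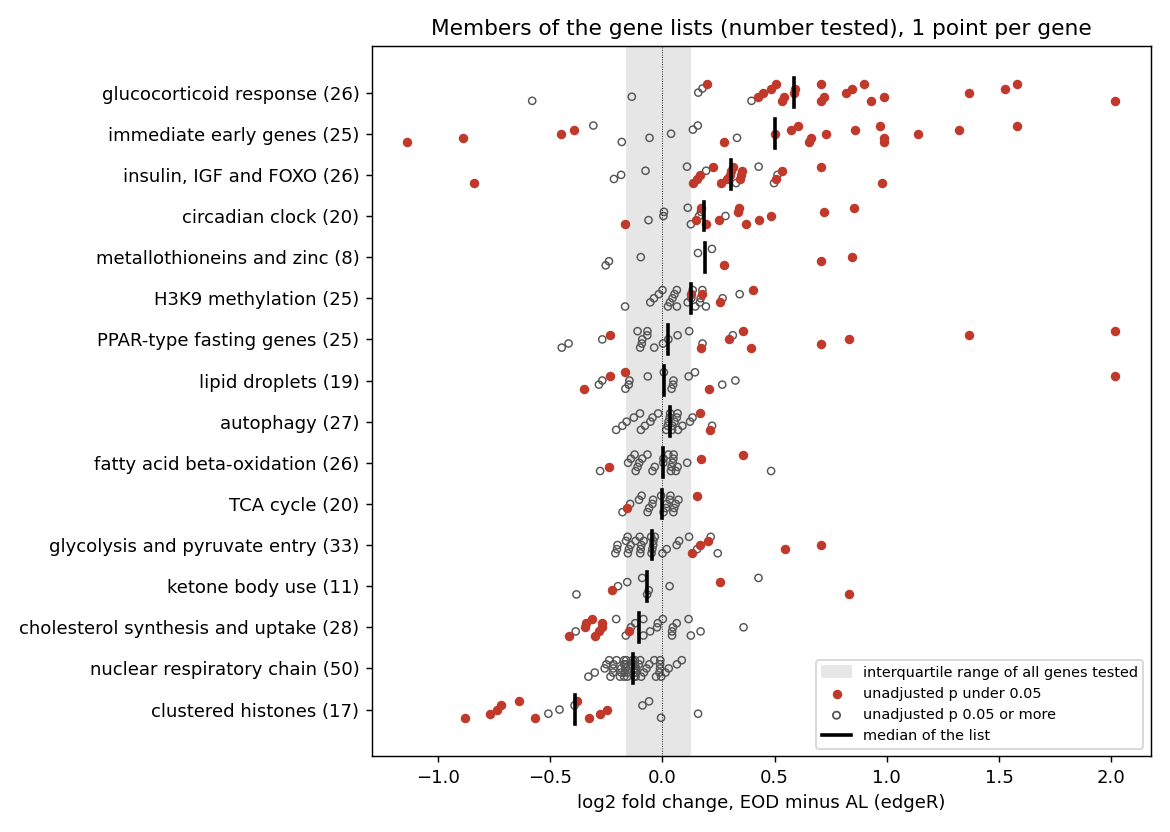
Log2 fold changes (EOD minus AL, edgeR, horizontal axis) of the tested members of 16 gene lists, 1 point per gene, with filled points for an unadjusted p under 0.05 and a black bar at each list's median. The grey band is the interquartile range of all genes. The glucocorticoid list has its median at 0.59, the immediate early genes spread on both sides around 0.50, and the clustered histones sit at -0.39.

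Immediate early genes, which neurons and vessels switch on within minutes of stimulation, differed in both directions. Of 25 genes tested, 14 were higher and 4 lower at an unadjusted p under 0.05, beside 7.02% and 7.4% of all genes. Their median was 0.50. Apold1 (chr6:134982001-134986836, plus strand), an early response gene of endothelium, was the called member. It measured 3.93, 3.04, 3.11, 3.21 and 2.14 CPM in AL and 5.93, 7.62, 12.9, 12.3 and 7.49 in EOD, with every EOD library above every AL library. Apold1 rose by 1.58 (SE 0.26, edgeR adjusted p = 0.0357), with 2 calls in the 10 fits that left out a library. The 10 endothelial markers summed to 374 to 417 CPM in AL and 316 to 395 in EOD, and their part in the result was not tested. Plat (chr8:22757744-22782847, plus strand), tissue plasminogen activator, also rose: 57.0, 53.0, 53.7, 48.5 and 52.1 CPM in AL and 77.0, 72.1, 71.4, 72.0 and 66.0 in EOD (log2 0.44, SE 0.08, adjusted p = 0.0485, 0 calls in those 10 fits).

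The neuronal members of the list varied among the EOD libraries. Fos, a subunit of AP-1, measured 25.2, 30.8, 21.2, 8.76 and 23.3 CPM in AL and 25.6, 67.6, 72.2, 58.4 and 16.7 in EOD. EOD libraries 2, 3 and 4 were above every AL library and EOD libraries 1 and 5 lay within the AL range (log2 1.14, SE 0.39, edgeR adjusted p = 0.31). Npas4, an activity-dependent transcription factor, had 6.51, 6.30, 3.17, 3.03 and 7.71 CPM in AL and 9.06, 16.7, 20.5, 14.7 and 5.93 in EOD (log2 1.32, SE 0.33, adjusted p = 0.20). Nr4a1, an orphan nuclear receptor, had 32.9 to 61.0 CPM in AL, 91.5, 106 and 94.9 in EOD libraries 2, 3 and 4, and 59.3 and 47.3 in EOD libraries 1 and 5. Bdnf, a growth factor of neurons, had 9.76 to 14.5 CPM in AL and 12.7 to 21.4 in EOD (log2 0.60, SE 0.15, adjusted p = 0.20). Arc, which trims synaptic receptors, went the other way, at 26.8 to 32.9 CPM in AL and 20.7 to 25.8 in EOD (log2 -0.39, SE 0.11, adjusted p = 0.24), as did Ier5, at 29.95 to 36.8 and 23.4 to 27.6 CPM (-0.45, SE 0.12, adjusted p = 0.20). Nptx2, a synaptic pentraxin, had 5.38 CPM in AL library 1, 2.43 to 3.27 in the other AL libraries and 1.54 to 2.51 in EOD (-0.89, SE 0.20, adjusted p = 0.17, or -0.66 without AL library 1). Egr3 was scarce, at 1.27 CPM in AL library 1, 0.22 to 0.57 in the other AL libraries and 0.07 to 0.45 in EOD, and its log2 difference of -1.13 (SE 0.52, edgeR adjusted p = 0.34) was -0.53 (SE 0.46) without AL library 1. That library and AL library 4 are the ones high in Nrgn, and the part of this RNA in these values was not tested. Egr1 differed by -0.06 (SE 0.12). Without AL libraries 4 and 5 and EOD library 4, 6 of the 25 genes were higher and 4 lower, beside 2.33% and 3.46% of all genes.

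The core of the cyclic AMP response element, TGACGT, was in a promoter window of 10 of the 20 immediate early genes with one and of 8.37% of all genes, the counts including the full element TGACGTCA. The Npas4 window is shown because Npas4 has the smallest p of the 10. It is chr19:4989922-4990221, minus strand, and capitals mark its 2 copies, 1 on each strand, the first at -180.
Npas4: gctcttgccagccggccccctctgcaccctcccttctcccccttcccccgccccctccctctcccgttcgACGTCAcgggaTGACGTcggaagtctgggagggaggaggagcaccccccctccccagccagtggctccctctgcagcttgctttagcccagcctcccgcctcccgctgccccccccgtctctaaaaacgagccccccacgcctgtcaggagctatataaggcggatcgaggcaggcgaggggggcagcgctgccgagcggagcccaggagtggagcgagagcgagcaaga

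**Figure D4:**
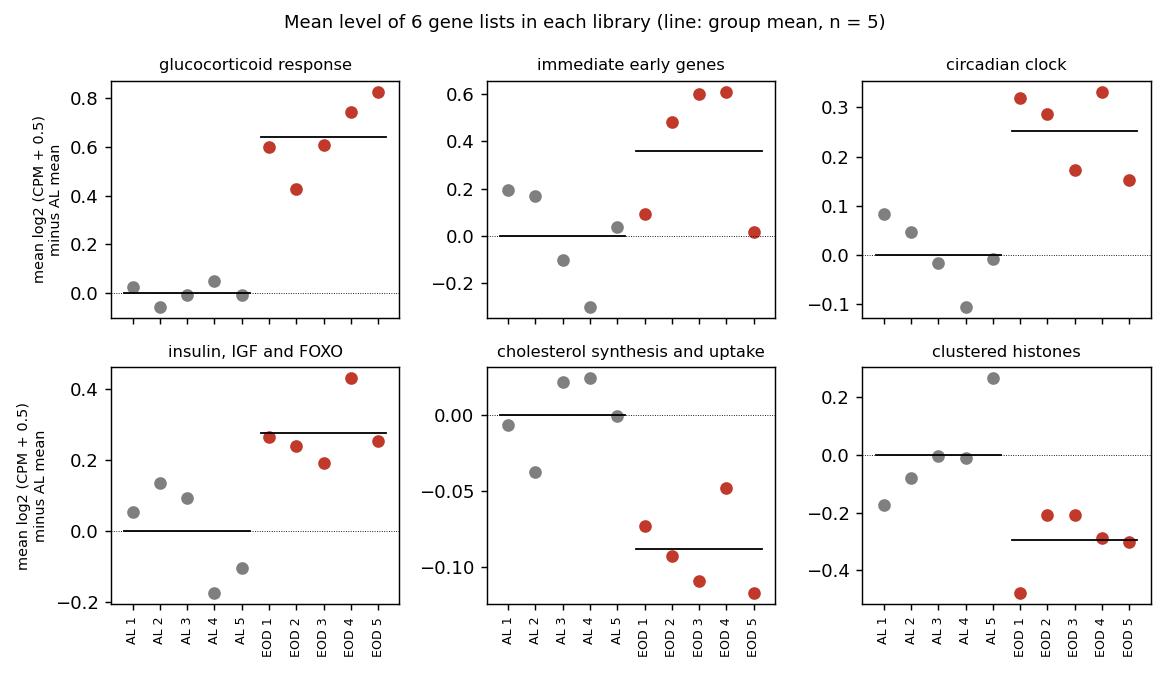
Mean level of 6 gene lists in each library (horizontal axis), as the mean log2 (CPM + 0.5) of the tested members minus the AL mean (vertical axis, a separate scale in each panel), with group means as lines (n = 5). The glucocorticoid list is between 0.43 and 0.83 in EOD and between -0.06 and 0.05 in AL, while the immediate early genes are at 0.09 and 0.02 in EOD libraries 1 and 5 and at 0.48 to 0.61 in EOD libraries 2, 3 and 4.

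The lists thus ranked the EOD libraries differently. The mean level of the glucocorticoid genes relative to AL was 0.60, 0.43, 0.61, 0.74 and 0.83 in EOD libraries 1 to 5, and every EOD library was above every AL library. That of the immediate early genes was 0.09, 0.48, 0.60, 0.61 and 0.02, with libraries 1 and 5 inside the AL range of -0.30 to 0.19. EOD library 5 was thus the highest on the glucocorticoid genes and the lowest on the immediate early genes. The clock list was 0.15 to 0.33 in EOD and -0.11 to 0.08 in AL. The libraries with liver and pituitary transcripts, 1 and 3, were at neither end of the glucocorticoid list, and without both 21 of its 26 genes were higher and the median was again 0.59. Without those 2 libraries, 9 of 20 clock genes, 14 of 26 insulin, IGF and FOXO genes and 13 of 25 immediate early genes were higher at an unadjusted p under 0.05, and 6 of 28 cholesterol genes and 6 of 19 clustered histones were lower, beside 4.8% and 5.31% of all genes.

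On the lower side, Hist1h1c (chr13:23738808-23740367, plus strand), a linker histone that packs chromatin, fell. It measured 28, 36.1, 38.3, 40.3 and 47.5 CPM in AL and 20.6, 22.2, 23.7, 23.9 and 25.2 in EOD, without overlap (log2 -0.72, SE 0.11, edgeR adjusted p = 0.0233). AL library 5 was the highest and AL library 1 the lowest of its group, and the call held in 3 of the 10 fits that left out a library. Of 70 clustered histone genes, taken from the count table by their symbols, 17 were tested. At an unadjusted p under 0.05, 10 of these were lower and 0 higher, beside 7.4% and 7.02% of all genes. Their median was -0.39. Their copies are near-identical, so reads may be shared between them. Hist1h2be, a core histone, had 4.46 to 7.97 CPM in AL and 3.13 to 3.97 in EOD (log2 -0.64, SE 0.17, adjusted p = 0.21). Without AL libraries 4 and 5 and EOD library 4, 6 of 17 were lower, beside 3.46% of all genes, and the median was -0.24.

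Fcrls (chr3:87250758-87263738, minus strand), a surface protein of microglia, was the other gene that fell: 4.71, 4.31, 3.43, 6.00 and 4.77 CPM in AL and 2.65, 2.61, 2.94, 2.57 and 2.49 in EOD (log2 -0.81, SE 0.14, edgeR adjusted p = 0.0436, 1 call in the 10 fits that left out a library). The EOD libraries lay within a narrow band below all AL libraries. Of 18 microglial markers, 3 were lower and 0 higher at an unadjusted p under 0.05, beside 7.4% and 7.02% of all genes. Their median was -0.20. Their summed level was 244, 233, 233, 318 and 304 CPM in AL and 225, 216, 247, 234 and 236 in EOD, and their part in the lower Fcrls was not tested. P2ry12, the receptor that defines resting microglia, had 6.56 to 8.50 CPM in AL and 6.74 to 8.29 in EOD (log2 0.02, SE 0.10), and Cx3cr1, the fractalkine receptor, 14.4 to 16.0 and 11.6 to 14.0 (log2 -0.23, SE 0.08, adjusted p = 0.30). Bin2, a membrane-shaping protein found in microglia, had 2.72 to 3.04 and 1.80 to 2.23 CPM (log2 -0.54, SE 0.12, adjusted p = 0.153).

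Genes of cholesterol synthesis and uptake were mostly at or below the AL level. Of 28 tested, 9 were lower and 0 higher at an unadjusted p under 0.05, beside 7.4% and 7.02% of all genes. The median was -0.10 and none was called. Sqle, the squalene epoxidase, had 33.1, 31.4, 35.3, 40.4 and 32.1 CPM in AL and 26.5, 29.2, 25.6, 30.1 and 27 in EOD (log2 -0.31, SE 0.09, edgeR adjusted p = 0.23). Its groups did not overlap, while Srebf2, the master regulator, differed by -0.02 (SE 0.07). Without AL libraries 4 and 5 and EOD library 4, 2 were lower and 1 higher, beside 3.46% and 2.33% of all genes.

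Among other fuel pathways, none of 50 nuclear genes of the respiratory chain had an unadjusted p under 0.05, but only 4 of the 50 had a log2 difference above 0, beside 46.7% of all genes, and the median was -0.13. That side turned without AL libraries 4 and 5 and EOD library 4, the libraries that stood apart on gene length: 47 of 50 were then above 0, with a median of 0.11. Of 33 genes of glycolysis and pyruvate entry, 5 were higher at an unadjusted p under 0.05 and 0 lower, a share of 15.2% beside 7.02% of all genes. Slc2a1, the glucose transporter of the blood-brain barrier, had 129, 124, 119, 147 and 148 CPM in AL and 169, 148, 173, 238 and 246 in EOD (log2 0.55, SE 0.19, edgeR adjusted p = 0.31). The lowest EOD library lay just above the highest AL library. Without the same 3 libraries, 3 of the 33 genes were higher, beside 2.33% of all genes. With all libraries, 1 of 20 genes of the TCA cycle was higher and 1 lower, beside 7.02% and 7.4% of all genes. Of 27 autophagy genes 2 were higher and 0 lower. Of 25 writers, readers and erasers of H3K9 methylation, the mark studied by chromatin immunoprecipitation elsewhere in the series, 4 were higher and 0 lower, beside the same shares. Phf8, a demethylase of H3K9, had the largest of these 4 differences (0.41, SE 0.14, edgeR adjusted p = 0.30), and the writer Suv39h1 had 17.8 to 20.6 CPM in AL and 20.8 to 23.6 in EOD (0.17, SE 0.06, adjusted p = 0.31).

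Loxhd1, also called, a protein of hair-cell stereocilia, was scarce: 0.58, 0.57, 0.63, 0.61 and 0.45 CPM in AL and 2.91, 1.97, 1.38, 1.86 and 1.26 in EOD. All EOD libraries were above all AL libraries, with EOD library 1 the highest. Loxhd1 rose by 1.71 (SE 0.24, edgeR adjusted p = 0.0097), and 9 of the 10 fits without a library called it, the exception being the fit without AL library 2 (adjusted p = 0.0511). Without EOD libraries 1 and 3 it was 1.57 (adjusted p = 0.0459).

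**Figure D5:**
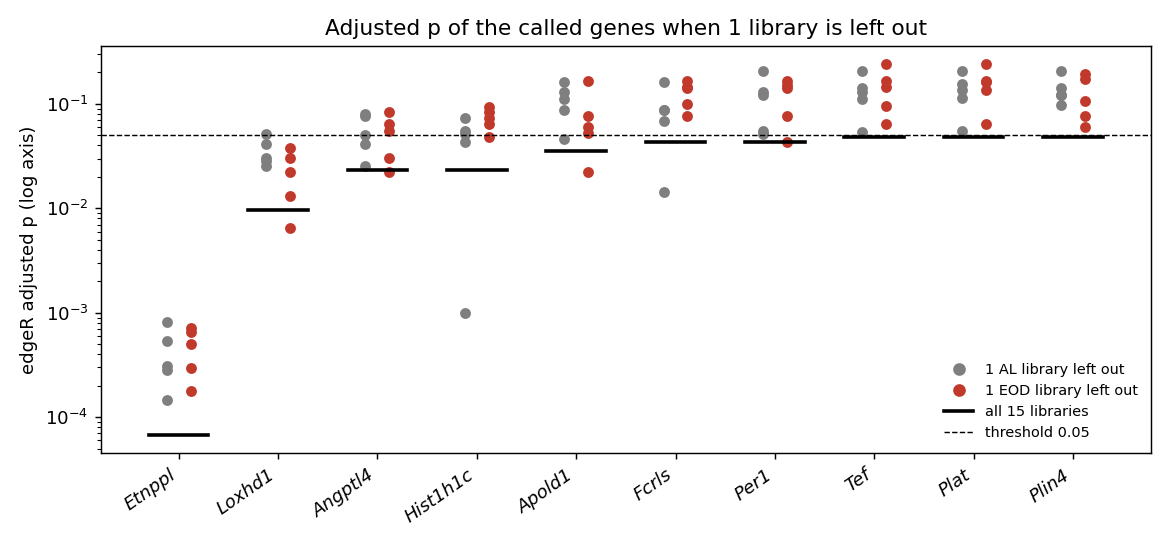
Adjusted p (edgeR, vertical log axis) of 10 of the 11 called genes (horizontal axis) in the 10 fits that each left out 1 AL (grey) or 1 EOD (red) library. The black bar is the fit with all 15 libraries and the dashed line the threshold of 0.05. Etnppl stays under the line in all 10 fits, and Tef, Plat and Plin4 are above it in all 10.

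Below the threshold, 19 more genes followed in order of p, with edgeR adjusted p from 0.0636 to 0.153. Dusp15, a phosphatase of myelinating oligodendrocytes, had 51.7 to 62.6 CPM in AL and 41.4 to 44.8 in EOD (log2 -0.41, SE 0.08, adjusted p = 0.121). The 10 oligodendrocyte markers summed to 5758 to 6812 CPM in AL and 5667 to 6340 in EOD, with 1 higher and 2 lower at an unadjusted p under 0.05. Tubb2b, a tubulin, had 129 to 201 CPM in AL and 113 to 119 in EOD (log2 -0.51, SE 0.11, adjusted p = 0.124). Others with lower values were Pkd2l1, a channel of neurons that contact cerebrospinal fluid (-0.65, SE 0.12), Cyp11a1, the first enzyme of steroid synthesis (-0.95, SE 0.19), Myo1a (-0.59, SE 0.11), C2cd4c (-0.81, SE 0.17), Tmprss5 (-0.93, SE 0.19), Asb14 (-0.87, SE 0.18) and Chst1, a sulfotransferase (-0.41, SE 0.09). Those with higher values were Stk32a (0.59, SE 0.11), Mthfd1l, a mitochondrial enzyme of one-carbon metabolism (0.37, SE 0.08), Fam83d (0.64, SE 0.14), Ctla2a (0.50, SE 0.10) and Atp10a, a lipid flippase (0.55, SE 0.12), beside Cpt1a, Usp2 and Txnip. Of the 19, the groups overlapped only for Cyp11a1. The genes were picked by p in these same libraries, so this separation is largely set by the choice and adds no support. Over all genes it held for 1.36% higher and 1.53% lower.

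No gene was called by edgeR between alternate-day fasting and the daily 16 h fast. Of 16577 genes tested between EOD and IF16, 0 passed (0%) and 600 had an unadjusted p under 0.05 (3.62%), while DESeq2 called 1. Angptl4 was 2.70 to 5.80 CPM in IF16 (EOD minus IF16 0.83, SE 0.20, adjusted p = 0.977), with 2 EOD libraries, at 5.71 and 5.78, just under the highest IF16 library. Cpt1a averaged 31.1 ± 2 CPM (SD, n = 5) in IF16 and 39.6 ± 2.01 in EOD (0.35, SE 0.07, edgeR adjusted p = 0.977). For Per1, also called between EOD and AL, the 2 regimens lay close, and less so for Etnppl and Tef, likewise called. Etnppl averaged 130 ± 4.38 CPM in IF16 and 140.2 ± 5.63 in EOD, Per1 182 ± 25.8 and 182 ± 27.9, and Tef 412 ± 13.8 and 371 ± 25.2. These differences had edgeR adjusted p of 0.977, 0.996 and 0.977. Such values do not show that levels are alike. The adjusted p was 0.977 for Cpt1a and Angptl4 too, whose unadjusted edgeR p were 0.0002 and 0.0008. Hist1h1c lay further apart, at 28.6 to 35.8 CPM in IF16 and 20.6 to 25.2 in EOD, without overlap (EOD minus IF16 -0.41, SE 0.11, edgeR adjusted p = 0.977). Several genes of the glucocorticoid, FOXO and immediate early lists had like means in both regimens, while others, such as Angptl4, did not. In IF16 and EOD, Sgk1 averaged 118 and 122 CPM, Zbtb16 16.1 and 14.5, and Txnip 30.5 and 29.3. Fos averaged 46.4 and 48.1 CPM, and Apold1 8.52 and 9.24. The higher levels of these genes than in AL were thus not particular to EOD.

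Whether the EOD difference from controls was of another size after 2 months of free feeding was tested by the interaction of regimen and refeeding. The fit of both tables called 2 of 16877 genes (0.0119%), with 1745 at an unadjusted p under 0.05 (10.3%). A gene without a call is not thereby shown to have kept its difference. Etnppl averaged 92.5 CPM in AL and 140.5 in EOD, and 81.3 in AL-R and 91.1 in EOD-R. Its difference was larger before refeeding by 0.44 on the log2 scale (SE 0.07, edgeR adjusted p = 0.0127), and EOD-R minus AL-R was 0.17 (SE 0.05, adjusted p = 1). Hist1h1c averaged 38.1 and 23.2 CPM in AL and EOD and 27.4 and 27.9 in AL-R and EOD-R, an interaction of -0.74 (SE 0.13, adjusted p = 0.0494). With 1 of the 20 libraries left out, Etnppl kept this call in 13 and Hist1h1c in 4 of 20 fits. Angptl4 (1.56, SE 0.30, adjusted p = 0.0754), Loxhd1 (1.76, SE 0.35, adjusted p = 0.0902) and Plin4 (2.16, SE 0.49, adjusted p = 0.198) had interactions of like size to their EOD differences without passing. For Plin4, AL-R and EOD-R averaged 2.48 and 2.24 CPM, and for Angptl4 2.504 and 2.20. Refeeding, age and sequencing table differ together between the 2 sets and cannot be told apart.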

How the data were processed

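RNA-seq libraries of mouse cerebellum were mapped to groups by their labels. The deposited values are raw counts of reads, whole numbers for 35275 genes in each of 2 tables, per the file headers. The submitters' processing notes name STAR 2.5, HTSeq 0.6.1, DESeq2 2 and the build mm10, and the strand setting is not given in the sources used here. Deposited FPKM values and the chromatin samples were not used here.

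Differences were tested in R 4.3.3 by quasi-likelihood with edgeR 4.0.16, after the filterByExpr filter and TMM scaling, in 1 fit of the 15 libraries of AL, IF16 and EOD. P-values were adjusted over all genes tested by the Benjamini-Hochberg method, with a threshold of 0.05. DESeq2 1.42.0 and voom of limma 3.58.1 were alternatives. CPM values are TMM-scaled. Standard errors come from the F statistic. Interactions were tested in 1 fit of both tables over 16877 genes. No 2 libraries of AL or of EOD agreed within sampling noise, with chi-square values of at least 8.52 per degree of freedom. The method was tested on simulated counts with the same spread for every gene and known changes in well-covered genes only. The simulated libraries had no length slope or foreign tissue, so the test does not cover these or scarce genes.

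The members, gene lists and tests were chosen with earlier results of these data known, and some lists rest on an earlier session's lists. Genes named are those called, then others by p up to 30, up to 4 of each list by p, further members as examples of a role, and transcripts that check single libraries. A few genes meeting these criteria are not reported here. For well-covered genes the depth leaves counting error small beside the spread between libraries, with a common coefficient of biological variation of 14.3%. For scarce genes such as Loxhd1 and Egr3 counting error is not small beside it.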

Additional observations from a re-analysis of the deposited data

Results flagged for a closer look

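In a test of 138 groups of 5 values for 1 library far from the others of its group, chance alone marks about 1 in 20. Foreign or neighbouring tissue gave the widest gaps: 112 CPM of summed liver markers in EOD library 1 (other EOD libraries 2.52 to 3.89), 38.4 CPM of pituitary markers in EOD library 3 (3.62 to 4.34), 18.5 CPM of brainstem markers in AL library 4 (0.95 to 1.98) and 13.7 CPM of neutrophil markers in AL library 2 (2.30 to 4.68). Astrocyte and Bergmann glia markers summed to 3800 CPM in EOD library 4, against 3057 to 3269 in the others.

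Among single genes, AL library 4 was the highest of its group for Tmprss5 at 4.43 CPM (others 2.41 to 2.88), Mfsd2a at 16.1 (10.02 to 11.7) and Klf15 at 26.2 (23.0 to 23.8). AL library 1 was lowest for Usp2 at 89.5 CPM (99.1 to 103) and highest for Nptx2 at 5.38 (2.43 to 3.27). AL library 5 was lowest for Mthfd1l at 18.5 CPM (20.3 to 20.8) and highest for Hist1h2be at 7.97 (4.46 to 5.22). EOD library 3 was lowest for C2cd4c at 1.90 CPM (2.32 to 2.40), and EOD library 4 highest for Mfsd2a at 19.6 (17.04 to 17.4).

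The EOD difference from controls differed before and after refeeding for Etnppl, by 0.44 on the log2 scale, and for Hist1h1c, by -0.74, both past the edgeR threshold in the test of the interaction.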

How the results depend on the processing

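The number of genes called between EOD and AL, 11, depended on the setting, and no called gene changed direction in any setting run. It was 7 with DESeq2's size factors, 133 with DESeq2, 5 with limma voom, 4 with the replicate number as a block, 7 with the length slope as a covariate and 18 with the choroid plexus level as a covariate. It was 2 to 6 with 1 AL or EOD library left out, and lowest without AL library 2, with Etnppl among the genes left. Chosen after seeing the data, leaving out EOD libraries 1 and 3 gave 2 (Etnppl and Loxhd1), and leaving out AL libraries 4 and 5 and EOD library 4 gave 1 (Etnppl). It was 9, 9 and 8 with no filter on low counts, with a minimum of 1 CPM and with the AL and EOD libraries alone.

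The 4 genes under the replicate block were Etnppl, Angptl4, Loxhd1 and Klf2. Libraries of AL and EOD with the same number had correlations of -0.033, 0.163, -0.112, -0.281 and 0.322, AL libraries 2 and 5 but no EOD library correlated best with their own number, and the numbers were not taken to pair the samples.

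Between EOD and IF16 the count was 0, but 1 with DESeq2 and 1 with no filter, and 0 in each of the 10 fits without 1 library and under the replicate block. The interaction with refeeding gave 2 genes, 14 with DESeq2, 4 with no filter and 0 to 6 without 1 library. It was 0 without AL library 4, EOD libraries 1 or 2, AL-R libraries 3 or 5, or EOD-R libraries 3 or 4, and 6 without AL library 1. The causes were not tested. Over the 21 settings the glucocorticoid median ranged from 0.52 to 0.65, the clock median from 0.17 to 0.22 and the insulin, IGF and FOXO median from 0.10 to 0.35.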

Other observations

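The mitochondrial genome's mRNAs, which encode respiratory chain subunits inside the organelle, were listed apart from the nuclear ones. All 12 tested had a log2 difference above 0, from 0.03 to 0.69, and 1 was higher at an unadjusted edgeR p under 0.05. Relative to AL, their mean log2 level was 0.45 and 0.35 in EOD libraries 2 and 3 and between -0.05 and 0.05 in EOD libraries 1, 4 and 5, and in AL it ranged from -0.10 to 0.20. Library 1 of AL was the highest of its group.

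Forebrain markers, which check for tissue from outside the cerebellum, were low in both groups. The 8 genes summed to 9.88 to 16.5 CPM in AL and 6.37 to 9.39 in EOD, and 3 of the 5 tested were lower at an unadjusted p under 0.05. AL libraries 1 and 4 were the highest, and they stood apart for 2 of these 3: Lhx2 was 3.56 and 1.88 CPM in them and 0.29 to 0.42 in the other AL libraries, and Drd2 4.89 and 3.97 against 0.63 to 1.12. The third was Tbr1, at 0.91 to 1.22 CPM in AL and a mean of 0.75 ± 0.08 (SD, n = 5) in EOD. Among 16 genes of sirtuins and mitochondrial biogenesis, 3 were higher and 3 lower at that threshold, and among 11 matrix metalloproteinase genes 2 were higher and 1 lower. Over all genes the shares were 7.02% and 7.4%.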
